A study of Mus musculus with 2 samples.

Results

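Chromatin accessibility at 10 genes of megakaryocytes and platelets was followed in 41 regions, out of 29076 regions in all, that overlapped one of these genes or lay within 30 kb of it. The genes were Itga2b, Itgb3, Gp1ba, Gp1bb, Gp9, Gp5, Vwf, Pf4, Tubb1 and Plek. A region is a peak of the control or the knockout list, or several peaks of both lists merged where they overlapped by at least 1 bp. Both lists came from ATAC-seq, which maps open DNA by the insertion of adapters with a transposase. The cells were C57BL/6 fetal liver cells of embryonic stage E14.5, sorted as lineage-negative and positive for the receptor c-Kit, with 150000 cells in each library. The control library had the genotype CD45.2(+) Brd9fl/fl and the knockout library CD45.2(+) Vav1-iCre Brd9fl/fl, so both carried floxed Brd9 alleles and the knockout also carried the Cre recombinase, expressed in blood cells from Vav1 regulatory elements. Brd9 encodes a bromodomain subunit of non-canonical BAF, a chromatin remodeller. Each genotype had 1 library, and the sources used here do not say how many embryos a library held. No p-value was therefore computed, and a difference below is one between these libraries.

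Megakaryocytes are the large bone marrow and fetal liver cells that shed platelets. Platelets stop bleeding in steps that the listed genes serve: the GPIb-IX-V receptor catches von Willebrand factor at a damaged vessel, granules release chemokines, and the integrin αIIbβ3 binds fibrinogen and links platelets to each other. The αIIb integrin, also known as CD41, is present early in the lineage and on some blood progenitors of the embryo, and von Willebrand factor is made by endothelial cells too.

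Read numbers are summit reads, the number of extended reads over the highest point of a peak, recovered from the deposited fold and −log10 p. The knockout library had 0.6403 times the depth of the control library, judged by the lowest background of each list. A scaled ratio is knockout over control summit reads divided by this depth. Its 95% interval covers counting error only. The lowest listed control summit had 7 reads and the lowest knockout summit 6, and no listed peak was narrower than 376 bp. A site that is missing from a list may thus have been narrow or shallow, and its reads are unknown.

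Of the markers checked for the sorted population, Kit, which encodes c-Kit, had 109 control and 65 knockout reads at a gene end, a scaled ratio of 0.931 (0.674 to 1.28). A gene-end region lies within 1 kb of either outer end of a gene in the RefSeq table. The region at an end of Brd9 had 217 and 151 reads (1.09, 0.877 to 1.34), and it checks neither label, because where the floxed sequence lies was not stated. Gene-end regions of the Y-linked genes Ddx3y and Uty were in the knockout list alone, with 33 and 18 reads, while the other Y-linked genes checked, Kdm5d and Eif2s3y, had none in either list. Xist had 86 and 33 (0.599, 0.388 to 0.905). Genotype, presence of Cre and sex make-up of the embryos cannot be told apart.

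The RefSeq table of promoters (GRCm38.p6, the coordinates of mm10) held 8 of the 10 genes. The 250 bases before the start site were searched on both strands for the GATA motif (AGATAA or AGATAG or TGATAA or TGATAG), the ETS core (CGGAAG or AGGAAG), the RUNX motif (TGTGGT or TGCGGT) and the NFE2/AP-1 motif (TGAGTCA). No matches overlapped in these 8 promoters. The sequences below are those of the 3 genes whose promoter held a peak of 1 list alone (Itga2b, Tubb1 and Plek) and of the 2 shared promoters with the most GATA matches (Gp1ba and Gp5). They are printed 5′ to 3′ on the strand of the gene and end 1 base before the start site. Capitals mark motif matches. They span chr11:102469884-102470133 (minus strand, Itga2b), chr2:174450345-174450594 (plus, Tubb1), chr11:17008719-17008968 (minus, Plek), chr11:70638872-70639121 (plus, Gp1ba) and chr16:30310782-30311031 (minus, Gp5).
Itga2b: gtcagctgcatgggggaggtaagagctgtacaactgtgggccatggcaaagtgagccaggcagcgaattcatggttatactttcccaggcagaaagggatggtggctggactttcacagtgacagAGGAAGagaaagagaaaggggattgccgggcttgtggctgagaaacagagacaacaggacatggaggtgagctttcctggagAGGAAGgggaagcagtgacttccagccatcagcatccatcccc
Tubb1: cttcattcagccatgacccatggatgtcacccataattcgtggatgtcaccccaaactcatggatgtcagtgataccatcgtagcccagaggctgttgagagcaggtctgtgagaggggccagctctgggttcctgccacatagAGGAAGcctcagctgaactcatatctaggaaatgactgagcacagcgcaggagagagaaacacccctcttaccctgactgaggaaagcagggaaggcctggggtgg
Plek: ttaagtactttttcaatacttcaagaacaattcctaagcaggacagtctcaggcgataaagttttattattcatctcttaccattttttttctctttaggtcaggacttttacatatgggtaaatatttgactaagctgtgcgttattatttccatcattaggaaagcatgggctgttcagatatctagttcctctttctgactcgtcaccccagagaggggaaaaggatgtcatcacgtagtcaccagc
Gp1ba: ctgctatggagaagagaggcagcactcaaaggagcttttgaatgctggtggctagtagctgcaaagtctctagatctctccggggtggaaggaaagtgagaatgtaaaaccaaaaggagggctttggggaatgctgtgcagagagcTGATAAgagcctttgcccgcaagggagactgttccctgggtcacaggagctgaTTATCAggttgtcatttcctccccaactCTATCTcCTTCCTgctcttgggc
Gp5: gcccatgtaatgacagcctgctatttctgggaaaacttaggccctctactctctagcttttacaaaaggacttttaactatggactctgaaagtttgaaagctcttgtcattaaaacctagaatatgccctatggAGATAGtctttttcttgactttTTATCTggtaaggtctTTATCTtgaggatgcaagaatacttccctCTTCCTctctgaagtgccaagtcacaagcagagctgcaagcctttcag

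The ETS core was found in 7 of the 8 promoters and in 39.2% of all 32851 promoters of this length. The GATA motif was found in 3 of the 8, with 3 matches in Gp1ba, 3 in Gp5 and 1 in Gp1bb, against 26.5% of all promoters. The RUNX motif was in 1 of the 8 (Gp9; 18.6% of all) and the NFE2/AP-1 motif in 0 of the 8 (4.46% of all). Itga2b held ETS cores from 125 to 120 and from 43 to 38 bases before its start, and Tubb1 held 1 from 106 to 101. Plek held none of the motifs. A knockout-only peak covered all 250 bases of the Itga2b window and all 250 of the Tubb1 window, and a control-only peak covered 115 bases of the Plek window. Shared regions covered the windows of Gp1ba, Gp5 and Pf4, whereas no region touched those of Gp1bb and Gp9. These matches describe the sequence and do not show that a factor was bound.

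Of the 41 regions, 32 were shared by both lists, 6 were control-only and 3 knockout-only. The control-only share was 14.6% (exact Clopper-Pearson interval 5.57 to 29.2), beside 23.4% over all regions. The knockout-only share was 7.32% (1.54 to 19.9), beside 13.0%. Both intervals included the share over all regions. The 32 shared regions had 2724 control and 1722 knockout reads in sum, a pooled scaled ratio of 0.987 (0.929 to 1.05). Their median log2 scaled ratio was 0.04, beside 0.00 over all 18481 shared regions with a ratio, and single ratios ran from 0.437 to 2.92.

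An interval above 1 was found for 3 of the 32 regions (Itgb3, Plek and a region of Rnf167 and Slc25a11), beside 7.41% of all shared regions. An interval below 1 was found for 4 (Tubb1, Vwf, a region in Rab43 and one at Eldr and Fbxo48), beside 8.47%. A ratio of at least 1.5 was found for 5 regions, beside 9.09%, and one of at most 0.667 for 4, beside 9.51%. With so few regions these counts lie near the shares over all shared regions and are no result about the listed genes. The counting intervals say nothing of variation between embryos.

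**Figure D1:**
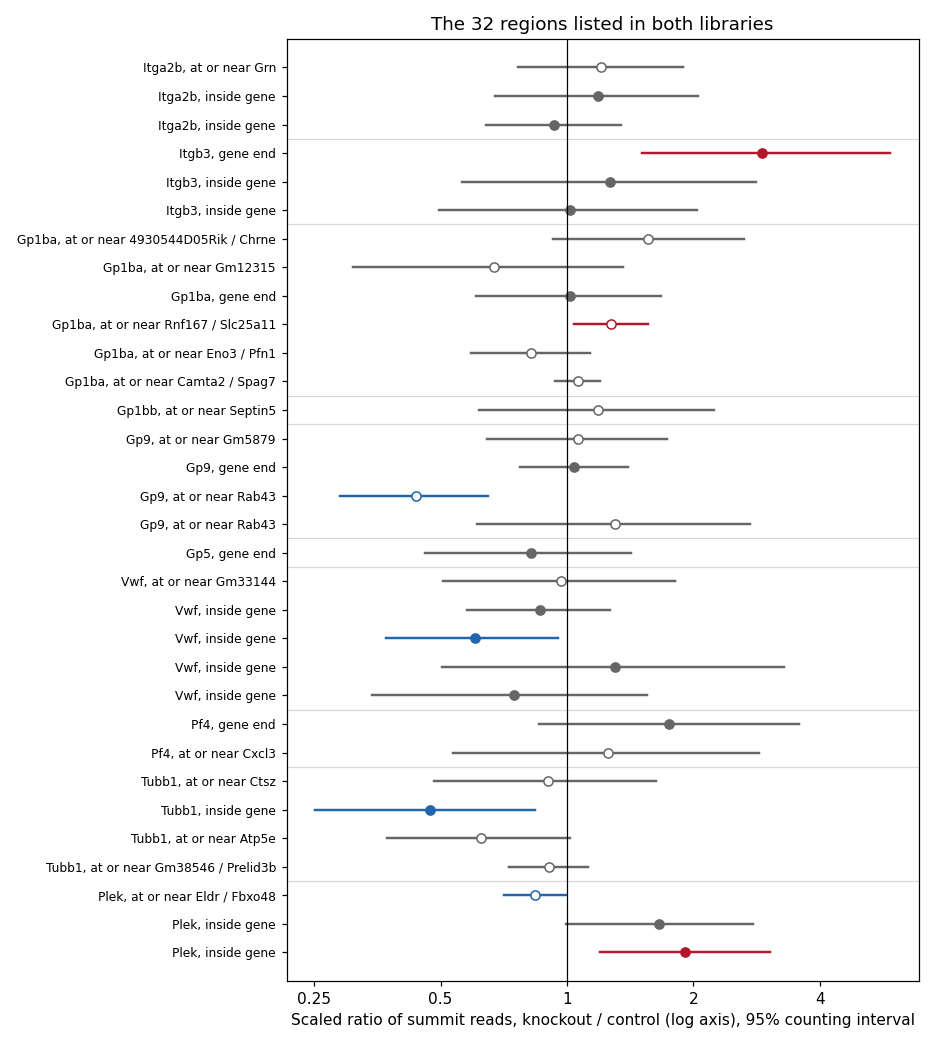
Scaled ratio of summit reads (knockout over control, log axis) for the 32 regions in both lists, grouped by gene, with 95% counting intervals; filled points are regions with the listed gene as the nearest, open points regions nearer to another gene, and colour marks intervals above 1 (red) or below 1 (blue). Itgb3 stands highest at 2.92, and the region in Rab43 near Gp9 lowest at 0.437.

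The listed gene was the nearest gene for 21 of the 41 regions, of which 16 were shared. Their pooled scaled ratio was 1.04 (0.925 to 1.17). The other 20 regions lay nearer to, or inside, a neighbouring gene, and 16 of these were shared, with a pooled ratio of 0.968 (0.902 to 1.04). Of the 21, the 8 gene-end regions comprised 5 shared, 1 control-only and 2 knockout-only, and the shared ones had a pooled ratio of 1.17 (0.957 to 1.43). All 11 regions inside the genes were shared (0.978, 0.841 to 1.14). Both regions outside the genes were control-only. Shares over all regions of the same place were not computed, so these small counts are no result about the listed genes.

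Among the 10 genes, both lists had a gene-end region for Itgb3, Gp1ba, Gp9, Gp5 and Pf4, and one was in the control list alone for Plek, in the knockout list alone for Itga2b and Tubb1, and in neither for Gp1bb and Vwf. Over all protein-coding genes the shares were 47.4% for both lists, 3.42% for the control list alone and 1.79% for the knockout list alone. Of the 5 shared ones, 1 (Itgb3) had an interval above 1 and 0 had one below, beside 9.33% and 7.59% of all protein-coding genes with a shared gene-end region.

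**Figure D2:**
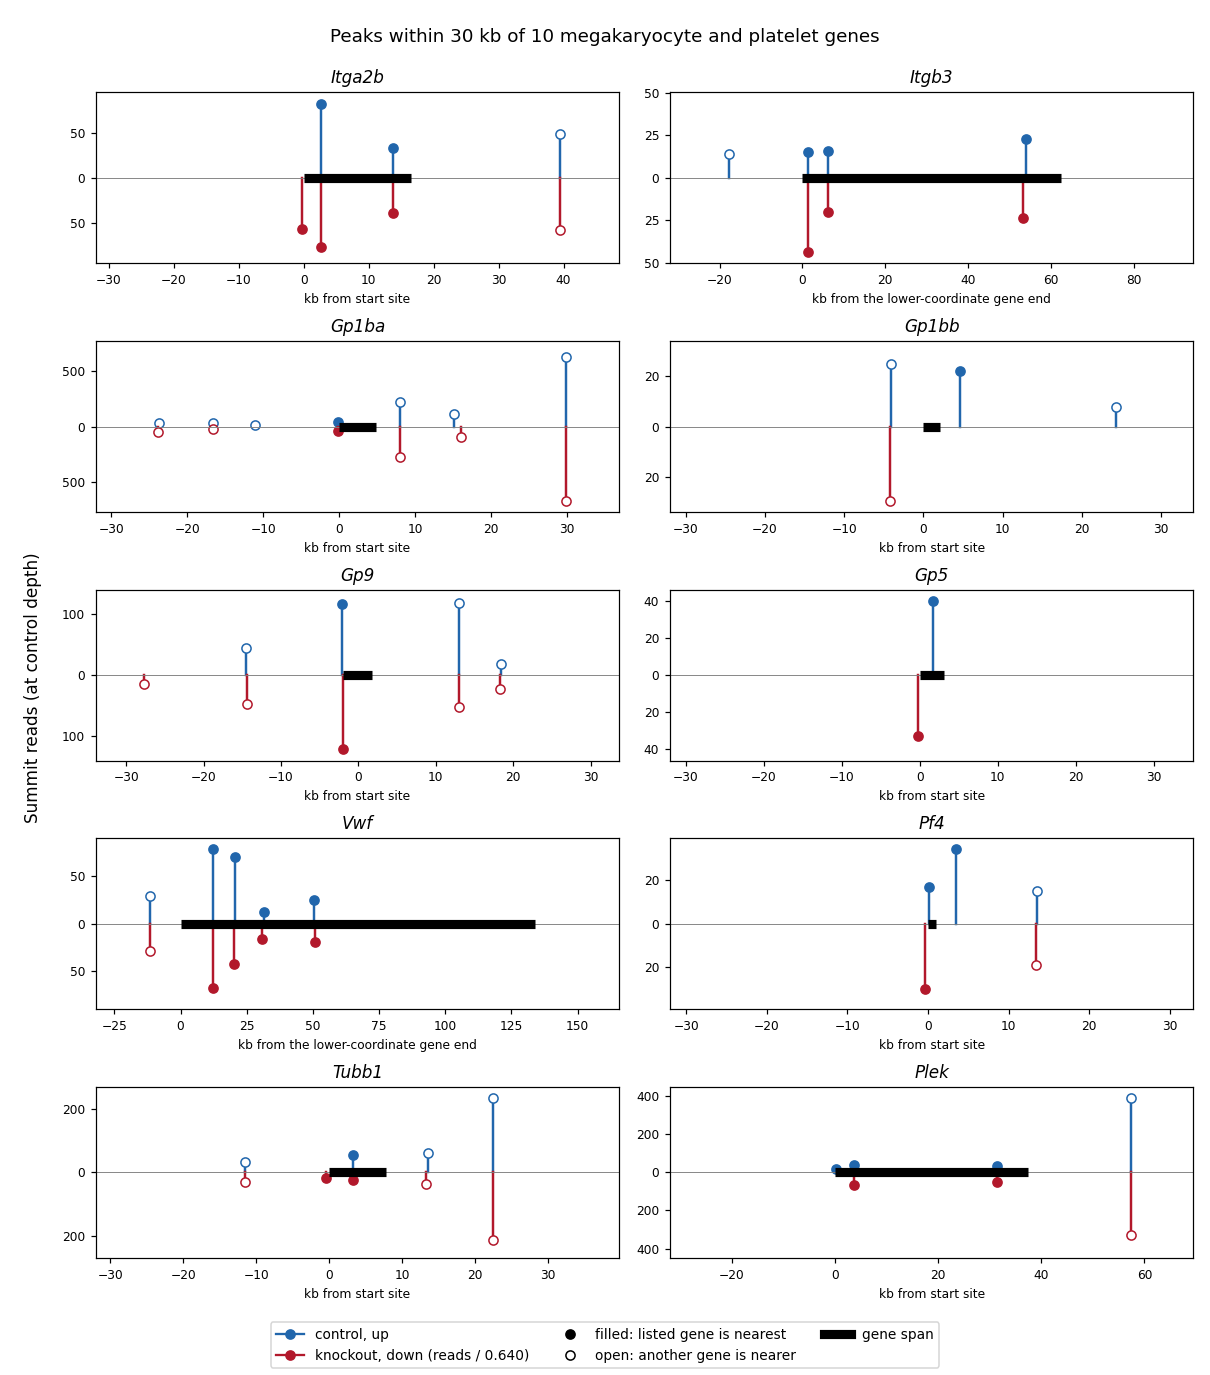
Summit reads of the tallest peak of each list in every region within 30 kb of the 10 genes, drawn at the distance of the summit from the start site in kb (for Itgb3 and Vwf from the lower-coordinate gene end), with control reads upward and knockout reads scaled to control depth downward; black bars are gene spans and open points regions nearer to another gene. Itga2b has a knockout peak but no control peak at its start, Pf4 a control peak alone 3.5 kb past its start, and for Gp5 the tallest knockout peak stands apart from the control summit.

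Itga2b encodes the αIIb chain of the fibrinogen receptor and lies at chr11:102453297-102469883. At its start site the knockout list held a peak of 36 reads (25.2 to 49.8), equal to 56.2 reads at the depth of the control, and the control list held none. The peak was 478 bp wide (chr11:102469858-102470335), with its summit at −232 from the start, inside the sequence printed above. Few knockout peaks of this height were missing from the control list: of the 9504 regions with at least 36 knockout reads, 35 (0.368%) were knockout-only. The regions inside the gene did not share this contrast. The region with its control summit at 2640 bp past the start had 82 control and 49 knockout reads (0.933, 0.641 to 1.35). The one further in, at 13798 bp, had 33 and 25 reads (1.18, 0.674 to 2.05). A region of Grn, 22051 bp from the gene, had 48 and 37 (1.204, 0.762 to 1.89). Both libraries thus had accessible sites within Itga2b, and the peak over its promoter was listed in the knockout alone.

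Itgb3 encodes the β3 chain that pairs with αIIb and also with the αv integrin chain (chr11:104608000-104670476). Its gene-end region, at chr11:104608827-104609594, had 15 control and 28 knockout reads, a scaled ratio of 2.92 (1.505 to 5.87). The peak was 389 bp wide in the control, close to the narrowest listed, and 768 bp in the knockout. It was a low peak in the control, where 19.1% of all peaks had fewer reads. The other regions inside Itgb3 had 16 and 13 reads (1.27, 0.561 to 2.81) and 23 and 15 reads (1.02, 0.494 to 2.04). Pooled over the 3 regions the ratio was 1.62 (1.09 to 2.399). A control-only region of 14 reads lay 17537 bp from Itgb3 and nearer to Myl4, a myosin light chain gene. Over both integrin genes, the 5 shared regions had 169 and 130 reads (1.201, 0.948 to 1.52).

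Ratios such as that at the end of Itgb3 were also set beside regions of like control height. Control reads are the denominator of the ratio, and a shared region must also be listed as a knockout peak. Higher ratios where control reads are few thus follow in part from this grouping. Shared regions with under 30 control reads had a median log2 scaled ratio of 0.26 (4875 regions), and 26.4% of them had a ratio of at least 1.5. With 30 to 99 control reads the median was −0.11 (7162 regions) and this share was 4.83%. With 100 and over the median was −0.03 (6444 regions) and this share was 0.729%. The 11 shared regions near the listed genes with under 30 control reads, which include those at the ends of Itgb3 and Pf4, had a median of 0.32. The 14 regions with 30 to 99 reads had −0.04 and the 7 regions with 100 and over −0.14. A ratio of at least 1.5 was found for 2 of these 11, 3 of the 14 and 0 of the 7. The share with an interval above 1, as at Itgb3, was 7.57% in regions with under 30 control reads and 1 of the 11 near the listed genes. With 30 to 99 control reads, as at Plek, it was 4.26% and 1 of the 14. An interval below 1, as at Tubb1 and Vwf, was found there for 9.49% and for 2 of the 14. With 100 and over, 10.8% had an interval above 1 and 13.6% one below, beside 1 and 2 of the 7.

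**Figure D3:**
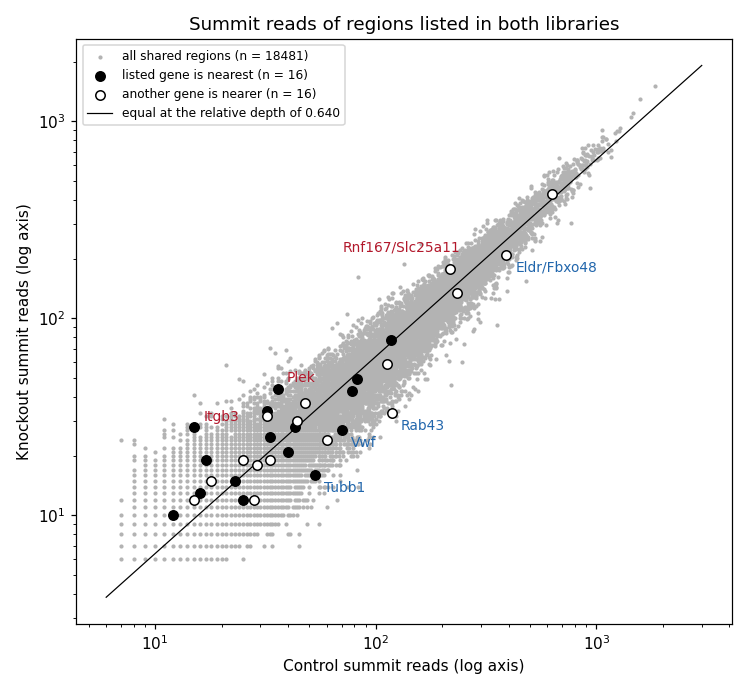
Control against knockout summit reads (both log axes) of all 18481 shared regions with a ratio (grey) and of the 32 near the listed genes (filled where the listed gene is nearest, open where another gene is); the line marks equal accessibility at the relative depth of the libraries. Names mark the 7 regions (red above, blue below) with an interval that leaves out 1, and most of the 32 lie within the grey cloud close to the line.

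The 4 genes of the GPIb-IX-V receptor, all leucine-rich repeat proteins, had intervals that included 1 at each shared gene-end region. Gp1ba encodes GPIbα, the chain that binds von Willebrand factor (chr11:70639102-70643986). Its gene-end region had 43 and 28 reads (1.02, 0.608 to 1.67), with control and knockout summits at −158 and −98 from the start. Gp9 encodes GPIX (chr6:87776131-87779786), and its gene-end region was the strongest of the 21 regions with a listed gene as the nearest. It had 117 and 78 reads (1.04, 0.772 to 1.398) and was taller than 77.9% of control and 77.2% of knockout peaks. This region lay at the outer end of the gene, 2.1 kb before the start site in the promoter table, which is why the Gp9 promoter window held no peak. Its width was 978 bp in the control and 614 bp in the knockout.

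Gp5 encodes GPV, a chain that thrombin cleaves (chr16:30307685-30310781), and had 1 region within 30 kb. The control peak was 2281 bp wide with 40 reads at 1735 bp past the start. In the knockout the same stretch held 2 peaks, with 20 reads at 1733 bp past the start and 21 at −154. The tallest summits gave a scaled ratio of 0.820 (0.459 to 1.42), and the summits at matching positions, a comparison chosen after their values were seen, gave 0.781 (0.432 to 1.37). Gp1bb encodes GPIbβ (chr16:18620319-18622403) and had no peak at its ends in either list. A control-only region of 22 reads (13.8 to 33.3) lay 2397 bp past its end. Of regions with at least 22 control reads, 9.09% were control-only. Another control-only region, with 8 reads, lay 21859 bp from Gp1bb and nearer to Gm35369. A region inside Septin5, the neighbouring septin gene, had 25 and 19 reads (1.19, 0.618 to 2.24). The 3 shared gene-end regions of Gp1ba, Gp9 and Gp5 had 200 and 127 reads in sum, a pooled ratio of 0.992 (0.788 to 1.24).

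Around Gp1ba and Gp9 the regions with an interval that left out 1 lay in neighbouring genes. A region of Rnf167 and Slc25a11, the latter a mitochondrial carrier gene, 2706 bp from Gp1ba (chr11:70646692-70647930), had 217 and 177 reads (1.27, 1.04 to 1.56). Inside Rab43, a small GTPase gene, a region 10879 bp from Gp9 (chr6:87790665-87791578) had 118 and 33 reads (0.437, 0.287 to 0.647), the lowest ratio of the 32. It had a width of 914 bp in the control and 477 bp in the knockout, with summits 21 bp apart. A second Rab43 region had 18 and 15 reads (1.301, 0.611 to 2.73). The tallest region near Gp1ba, at Spag7 and Camta2, had 630 and 428 reads (1.06, 0.936 to 1.20), and that of Pfn1 and Eno3 had 112 and 59 (0.823, 0.590 to 1.14). The remaining shared regions near Gp1ba and Gp9 had 28 to 44 control and 12 to 32 knockout reads, each with an interval that included 1. They included a region at 4930544D05Rik and Chrne (32 and 32; 1.56, 0.926 to 2.63) and one at Gm12315 (28 and 12; 0.669, 0.310 to 1.36). One-list regions here were weak, with 12 control reads near Gp1ba and 9 knockout reads near Gp9.

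Vwf encodes von Willebrand factor, the ligand of the GPIb-IX-V receptor (chr6:125552948-125686679). Neither list held a peak at its ends, and its 4 regions all lay inside the gene, from 12303 to 50568 bp past the lower-coordinate end by their control summits. From that end inward they had 78 and 43 reads (0.861, 0.579 to 1.26), 70 and 27 (0.602, 0.371 to 0.951), 12 and 10 (1.301, 0.504 to 3.29), and 25 and 12 (0.7496, 0.343 to 1.55). The second, at chr6:125572599-125573784, was the one with an interval below 1. Pooled, the 4 regions had 185 and 92 reads, a ratio of 0.777 (0.598 to 1.003). A region 11293 bp from Vwf had 29 and 18 reads (0.969, 0.507 to 1.81). Of 8 endothelial marker genes, 6 lacked a peak at their ends in both libraries, including Cdh5 and Pecam1. Over all protein-coding genes, 47.4% had a gene-end peak in both lists. Tek had 12 control reads alone, and Kdr had separate regions of 15 control and 17 knockout reads. Away from their ends, Esam and Kdr each had a shared region inside the gene. Whether endothelial cells had a part in the Vwf signal was not tested.

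Pf4 encodes platelet factor 4, a chemokine of the alpha granules (chr5:90772435-90773383). Its gene-end region had 17 control and 19 knockout reads (1.75, 0.859 to 3.57). The summits lay 443 bp apart, at 107 bp past the start in the control and −336 in the knockout, so that ratio compares different positions. A region at chr5:90775422-90776060, past the gene, stood in the control list alone with 34 reads (23.5 to 47.5), equal to 21.8 at the depth of the knockout. Of the 13423 regions with at least 34 control reads, 4.34% were control-only. In the neighbouring chemokine gene Cxcl3 a region had 15 and 12 reads (1.25, 0.534 to 2.86). The start region of Pf4 was thus in both lists, and the site past the gene in the control list alone.

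Tubb1 encodes β1-tubulin, the tubulin of the platelet marginal band (chr2:174450595-174458380). A knockout-only peak of 12 reads (6.20 to 21.0) covered its promoter, with the summit at −370, equal to 18.7 reads at the depth of the control. Inside the gene the contrast ran the other way. The region at chr2:174453445-174454101 had 53 control and 16 knockout reads (0.471, 0.252 to 0.837), with 58.9% of control but 30.3% of knockout peaks having fewer reads. The neighbouring region of Atp5e, which encodes an ATP synthase subunit, had 60 and 24 reads (0.625, 0.372 to 1.02). Regions of Ctsz, with 33 and 19 reads, and of Prelid3b, with 233 and 135, had ratios of 0.899 (0.483 to 1.63) and 0.905 (0.726 to 1.12). All 4 shared regions at this locus had a ratio below 1, as did 9330 of all 18481 shared regions with a ratio. Only the region inside Tubb1 had an interval below 1.

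Plek encodes pleckstrin, a protein kinase C substrate of platelets and of white blood cells (chr11:16971206-17008718). Both shared regions inside the gene had more reads in the knockout. The one with its control summit at 3686 bp past the start, chr11:17004424-17005550, had 36 and 44 reads (1.91, 1.201 to 3.05), and the one at 31381 bp had 32 and 34 (1.66, 0.993 to 2.78). Pooled, their ratio was 1.79 (1.28 to 2.52). The gene-end peak went the other way, with 16 reads (9.15 to 26.0) in the control list alone and a width of 399 bp. Of regions with at least 16 control reads, 14.7% were control-only. A region at Eldr and Fbxo48, 19418 bp from Plek, had 390 and 210 reads (0.841, 0.708 to 0.997), and its interval reached past 1 when the depth was taken from the median ratio of all shared regions (0.844). Among 7 macrophage and monocyte markers, 2 had a gene-end region, in both lists: Mertk with 12 and 21 reads (2.73, 1.28 to 6.09) and Cd14 with 12 and 8 (1.04, 0.369 to 2.77). The other 5, Csf1r, Adgre1, C1qa, Cd68 and Lyz2, had none at an end, although Csf1r had a shared region inside the gene with an interval above 1. In sum the list had 24 and 29 reads. Over all protein-coding genes, 47.4% had a gene-end peak in both lists. Whether such cells had a part in the Plek values was not tested.

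Of the 9 regions in 1 list alone, 4 had at least 15 reads: the control-only ones near Gp1bb, Pf4 and Plek, and the knockout-only one at Itga2b. Over all regions with at least 15 control reads 16.0% were control-only, and over all with at least 15 knockout reads 3.95% were knockout-only. The remaining 5 had 8 to 14 control or 9 to 12 knockout reads. Of regions with at least 12 knockout reads, as at Tubb1, 6.67% were knockout-only.

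**Figure D4:**
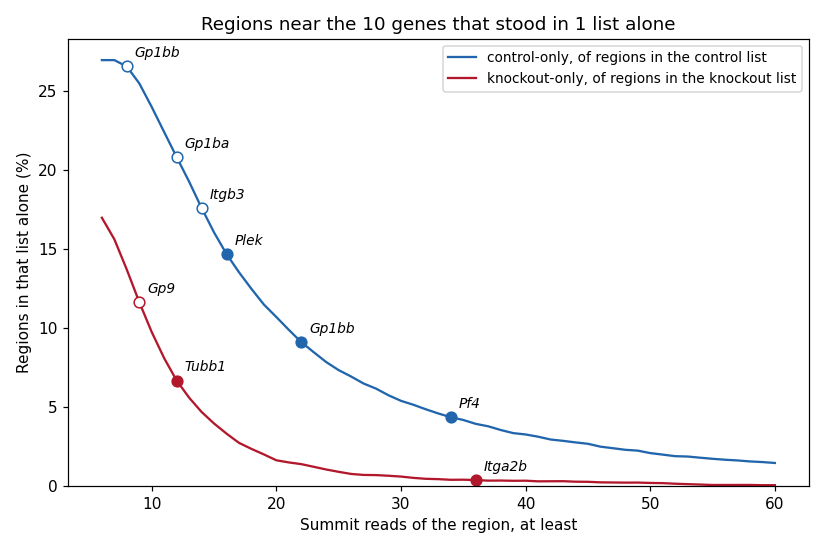
Share of regions found in 1 list alone (percent) among all regions of that list with at least the given number of summit reads, for the control (blue) and the knockout (red); points place the 9 one-list regions near the listed genes by their reads, filled where the listed gene is nearest. The Itga2b promoter, at 36 knockout reads, lies where 0.368% of regions were knockout-only, and the Pf4 region, at 34 control reads, where 4.34% were control-only.

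Summit positions in the 32 shared regions differed by a median of 57.5 bp between the libraries, beside 51.0 bp over all shared regions, and 22 of 32 (68.8%) lay within 100 bp, beside 70.8%. The largest shifts were those at Gp5 with 1889 bp, at Pfn1 and Eno3 with 830 bp and inside Itgb3 with 706 bp.

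Other genes of the megakaryocyte lineage, 35 in all, were read at their ends. A gene-end region was in both lists for 17, in 1 list alone for 0 and in neither for 18. Over all protein-coding genes the shares were 47.4% for both lists, 3.42% for the control list alone and 1.79% for the knockout list alone. The count in both lists thus lies near the general share. Gene ends are the outer ends in the RefSeq table, so a peak at a start site further inside is not counted here, and 7 of the 18 genes had a region inside the gene. The median log2 scaled ratio of the 17 was 0.02, with 9 ratios above 1 and 8 below. Intervals above 1 were found for 3: Nfe2, which encodes a subunit of the transcription factor NF-E2 needed for platelet release (402 and 306 reads; 1.19, 1.02 to 1.38), Zfpm1, which encodes the GATA1 partner FOG1 (1059 and 799; 1.18, 1.07 to 1.29), and Nbeal2, an alpha-granule gene (226 and 183; 1.26, 1.03 to 1.54). Intervals below 1 were found for 0 of the 17. Among protein-coding genes in general these shares were 9.33% above and 7.59% below, of those whose ends had a peak in both lists. Summed, the 17 had 2814 and 1979 reads (1.10, 1.04 to 1.16), a value that Zfpm1, Nfe2 and the myosin gene Myh9 (483 and 332; 1.07, 0.931 to 1.24) weigh most in. The lowest of the 17 ratios was that of Treml1, a receptor gene of platelet granules (43 and 17; 0.617, 0.330 to 1.11), and its interval included 1.

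Among the genes without a gene-end peak were the platelet receptor genes Gp6, Clec1b and P2ry12, the chemokine gene Ppbp, and also Gata1, Gata2 and Fli1, which had peaks inside the gene. Within these 35 genes or 1 kb of them lay 82 regions, 57 shared, 8 control-only and 17 knockout-only. Of the shared ones 4 had an interval above 1 and 3 one below, beside 7.41% and 8.47% of all shared regions. Those below lay in Gata1, Cd9 and Myh9. The control-only share of 9.76% stands beside the 23.4% of all regions, and the knockout-only share of 20.7% beside 13.0%. All regions also include those far from genes, and no interval was computed for the shares of these 35 genes. Counted within the genes or 1 kb of them, the 10 listed genes had 16 shared, 1 control-only and 2 knockout-only regions.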

How the data were processed

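ATAC-seq peak lists of 1 control and 1 knockout library, labelled replicates 1 and 2, were analysed. Trimmomatic 0.39, Bowtie2 2.4.4, Picard 2.26.2, deepTools 3.5.1, MACS2 2.2.7.1 and mm10 are named, per the submitters' processing notes, without roles or settings; how the transposase shift, duplicates and multi-mapping reads were handled was not stated. The deposited score, the deposited fold (a ratio of summit pileup to local background), the deposited −log10 values (of p-value and of q-value) and the summit position are the authors' values for each peak. Peaks were called per sample, as each list belongs to 1 sample.

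Every peak had a whole-number pileup that gave its −log10 p to within 7.31e-06 of the value (relative), and the recovery was tested on simulated peaks. Absolute depth is unknown. Without molecular identifiers, reads may be copies of 1 molecule. Regions with over 3000 reads in a library were left out of ratios. For a region with several peaks, the tallest of each list was used. Intervals are 95% exact Poisson (reads), Clopper-Pearson (shares) and conditional binomial (ratios).

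Gene ends came from a RefSeq table of GRCm38.p6, start sites and promoters from a RefSeq promoter table. Itgb3 and Vwf are placed by their gene ends. By the rule for named genes, all 10 genes were described with their gene-end or strongest region, regions with an interval that leaves out 1 and one-list regions of at least 15 reads; further regions are given for completeness. Other megakaryocyte genes and cell markers came from fixed lists; stem, hepatocyte, erythroid and mast cell markers are summarised at the end. Members and lists were chosen with earlier results of these data known. For the other megakaryocyte genes and the cell markers, whether another gene lay nearer to a region was not computed. Alternatives were distance, a −log10 q minimum, stricter overlap, equal peak numbers, nearest gene alone, other depth scalings and single-peak regions. Computation used SciPy 1.17.1 and pandas 2.3.3 under Python 3.11.15; plots used matplotlib 3.10.9.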

Additional observations from a re-analysis of the deposited data

How the results depend on the processing

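With 1 library per genotype no library could be left out, and no paired analysis was possible because the groups share no replicate number. The control-only share ran from 10.3% with equal numbers of peaks to 19.3% within 50 kb, and the knockout-only share from 2.70% when a −log10 q of 5 or more was required to 12.3% within 50 kb, all inside the intervals given above. The pooled scaled ratio ran from 0.969 within 50 kb to 1.05 within 10 kb, inside its interval but on both sides of 1, and the median log2 ratio from 0.03 to 0.06. The count of intervals below 1 fell from 4 to 2 within 10 kb and to 2 for regions with a listed gene as the nearest, since both settings leave out the Rab43 and the Eldr and Fbxo48 regions, and it was 3 with the depth taken from the median ratio. The count above 1 was 3, or 2 for regions with a listed gene as the nearest. Of 64 recomputed single ratios under other depths, 63 kept their side of the interval, the exception being that at Eldr and Fbxo48. What depth left unlisted in 1 library has no read number, so one-list regions have no ratio.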

Other observations

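Marker genes of other cells in the fetal liver gave these values at their gene ends. Of 8 stem and progenitor genes, 5 had a shared region (297 and 187 reads in sum; 0.983, 0.814 to 1.18), and Hlf had one of 15 reads in the knockout list alone. Of 5 erythroid genes, 3 had a shared region (699 and 382; 0.853, 0.751 to 0.968), Slc4a1 had one of 62 reads in the control list alone, and Alas2 had none. Away from their ends, Slc4a1 had 1 shared region inside the gene and Alas2 had 2. Of 5 hepatocyte genes, Apoa2 (281 and 217; 1.21, 1.01 to 1.44) and Apoa1 (26 and 19; 1.14, 0.597 to 2.14) had a shared region, and Alb, Afp and Ttr had none. None of the 4 mast cell and basophil genes Cpa3, Mcpt8, Ms4a2 and Fcer1a had a gene-end peak in either list. Vav1 had no gene-end region in either list. Inside the gene a shared region had 83 control and 163 knockout reads (3.07, 2.34 to 4.04), and another had 8 reads in the control list alone. The knockout also carried Cre under Vav1 regulatory elements. Whether reads from that transgene were counted in the shared region was not tested.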
